A study of Homo sapiens with 9 samples.

Results

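The genes described here are 40 genes of the autophagy machinery and its receptors, measured in ASC52telo, an adipose-derived stem cell (ASC) line from human fat that was immortalized with telomerase. They were taken by gene symbol from the platform annotation of a Clariom S Human array. All 40 were found, each read from 1 probe set, among 17687 named genes and 21448 probe sets. The 9 arrays fall into 3 groups of 3, all harvested after 10 days in a differentiation medium (DM) meant to turn ASCs into keratinocyte-like cells. CID cells received DM with CID-1067700 (CID), a small molecule inhibitor of the GTPase Rab7, at 40 μM, DMSO cells received DM with 0.1% of the solvent DMSO, and DM cells received DM alone. How much DMSO the CID wells held is not given in the sources used here. Every group comes from this 1 cell line. The submitters call the samples biological replicates, but nothing says that each came from its own culture. The p-values therefore cover no more than the spread among these samples, and part or all of that spread may be technical.

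Macroautophagy encloses cytoplasm in a membrane that grows into an autophagosome and is then carried to the lysosome, where the contents are broken down. The ULK kinase complex starts the process, a class III phosphatidylinositol 3-kinase complex marks the membrane, ATG2, ATG9 and WIPI proteins supply and shape it, and conjugation enzymes attach small ATG8 proteins (the LC3 and GABARAP families) to its lipids. Receptors such as p62, the product of SQSTM1, bind ubiquitinated cargo and ATG8 proteins together and are degraded with the cargo. Rab7 on late endosomes and autophagosomes recruits the tethering machinery for fusion with lysosomes. An array measures mRNA only, so that these values describe the transcripts of the machinery and neither autophagosomes nor the flux through them.

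Promoter windows of 300 bases around annotated transcription starts were read from RefSeq (GRCh38.p14) for 33 of the 40 genes, which gave 41 windows. No window was held for BNIP3L, MAP1LC3A, RB1CC1, UVRAG, ATG4D, STX17 and EPG5. A pair of windows is printed, the most downstream of the 3 windows of SQSTM1, because SQSTM1 was the gene that passed the test in every comparison of CID, and the window of ATG3, because it was the only one of the 41 with the core of the CLEAR element, the motif of the lysosomal regulator TFEB. The SQSTM1 window lies on the plus strand at chr5:179820655-179820954 and the ATG3 window on the minus strand at chr3:112561913-112562212. Capitals mark the motifs found, of which the SQSTM1 window has none.
SQSTM1 window: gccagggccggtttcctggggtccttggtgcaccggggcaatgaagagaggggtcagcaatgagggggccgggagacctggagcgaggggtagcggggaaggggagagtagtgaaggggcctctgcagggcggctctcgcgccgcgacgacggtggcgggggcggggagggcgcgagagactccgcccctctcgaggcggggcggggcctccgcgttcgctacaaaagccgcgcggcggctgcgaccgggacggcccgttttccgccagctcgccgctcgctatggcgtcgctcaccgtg
ATG3 window: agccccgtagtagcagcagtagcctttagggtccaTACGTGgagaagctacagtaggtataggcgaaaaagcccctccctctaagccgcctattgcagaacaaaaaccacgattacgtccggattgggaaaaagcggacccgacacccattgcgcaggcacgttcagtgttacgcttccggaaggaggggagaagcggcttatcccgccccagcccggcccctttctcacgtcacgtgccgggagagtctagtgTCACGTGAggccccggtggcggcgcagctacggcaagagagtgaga

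The motifs were searched by letters on both strands. TCACGTGA, the CLEAR core, was in 0.98% of all 35116 RefSeq windows and in the window of 1 member, ATG3. TGACNNNGC, the core of the antioxidant response element used by NRF2, was in 13.3% of all windows and in windows of 3 members, ATG101, CALCOCO2 and MAP1LC3B. TACGTG, a form of the hypoxia response element used by HIF-1, was in 3.24% of all windows and in windows of 6 members, ATG3, ATG5, ATG9A, ATG13, GABARAPL2 and WIPI2. The 2 motifs found in the ATG3 window do not overlap, and a match of letters is a description and not a binding site.

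The arrays were alike as wholes. Their median log2 values lay between 7.06 and 7.14, and correlations of arrays across probe sets were 0.994 to 0.995 within groups and 0.991 to 0.995 between groups. The 5 mesenchymal stromal markers (THY1, NT5E, ENG, VIM and PDGFRB) had values of 12.14 to 16.88, all above 5.40, the upper limit of the dimmest 33.3% of probe sets, while the 5 measured keratinocyte markers (KRT5, KRT14, KRT1, KRT10 and FLG) stayed below that limit on every array, at 3.30 to 4.91. The log2 of the summed mesenchymal markers was 17.62 to 17.63 on CID arrays, 17.81 to 17.86 on DMSO arrays and 17.75 to 17.77 on DM arrays, and its part in the results was not tested. Of these 5 markers 1 passed, PDGFRB, which fell by 0.77 on the log2 scale in CID against DMSO (adjusted p = 0.00636, limma with Benjamini-Hochberg adjustment) and had a log2 fold change of -0.46 against DM (adjusted p = 0.0912, limma). The list was split unevenly, since 4 of the 5 were below 0 against DM and 3 against DMSO. THY1 had log2 fold changes of 0.39 against DM and 0.45 against DMSO, with CID arrays above all control arrays. NT5E had -0.24 against DM, with CID arrays (14.96 to 15.07) below all control arrays (15.15 to 15.50). For the 4 adipocyte markers the log2 of the sum was 11.33 to 11.71 on CID, 11.07 to 11.72 on DMSO and 11.20 to 11.38 on DM arrays, which is mostly CIDEC, with 9-array mean 11.36. PLIN1 (5.22, 5.95 and 5.39 on CID, 4.96, 4.35 and 5.40 on DMSO and 4.75, 4.42 and 4.27 on DM arrays) had a log2 fold change of 1.04 against DM (adjusted p = 0.0929, limma). Its CID arrays lay above all DM arrays but overlapped with DMSO arrays. Its 9-array mean, 4.97, is below 5.40, although its CID mean is 5.52. CIDEC had 0.23 against DM, with overlapping arrays. FABP4 and ADIPOQ were below 5.40 on every array, so that no fold change is given for them. Of the 4 markers, 3 were above 0 against DM and 0 passed. The log2 of the sum for the 3 leukocyte markers was 12.17 to 12.37 on CID, 12.21 to 12.60 on DMSO and 12.09 to 12.49 on DM arrays, with ranges of CID that overlap both controls. That sum is mostly CD68, with 9-array mean 12.27. PTPRC was below 5.40 on every array, at 4.64 to 5.20, and CD14 had a 9-array mean of 6.08. RAB7A, which encodes the target of CID, had log2 values of 16.35, 16.30 and 16.41 on CID arrays, 16.35, 16.20 and 16.28 on DMSO arrays and 16.25, 16.12 and 16.23 on DM arrays, and its difference of CID against DM was 0.15 (95% interval -0.09 to 0.39). The inhibitor acts on the protein, so that this transcript is no check of its action.

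Of the 40 autophagy genes, 1 rose and 0 fell in CID against DM, 1 rose (SQSTM1) and 1 fell (MAP1LC3A) in CID against DMSO, and 0 passed in DMSO against DM. Passing means an adjusted p under 0.05 in limma with Benjamini-Hochberg adjustment over all 21448 probe sets, and both genes also met the fold change threshold of 1.5 that defines a DEG here. The member of CID against DM was again SQSTM1, which is not in the paper's own list of DEGs for that comparison. Among all probe sets, 1.4% passed in CID against DM (0.392% higher and 1.01% lower), 2.76% in CID against DMSO (0.802% higher and 1.96% lower) and 0.00466% in DMSO against DM. As DEGs, 1.35% of all probe sets were called in CID against DM and 2.41% in CID against DMSO. Against the mean of DM and DMSO the same 2 genes passed, where 3.38% of all probe sets did (1.04% higher and 2.34% lower) and 2.44% were DEGs. The comparisons of CID share the CID arrays, so that their counts are not independent. In bulk RNA, fewer cells of a type and less RNA per cell cannot be told apart.

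The set as a whole was centred on no change. Its median log2 fold change was 0.0083 in CID against DM, 0.015 in CID against DMSO and 0 in DMSO against DM, where the medians over all probe sets were 0.0067, 0.0167 and 0. Log2 fold changes above 0 were found for 21 of 40 genes in CID against DM (51.2% of all probe sets), for 21 of 40 in CID against DMSO (53.2%), for 22 of 40 in CID against the mean of both controls (52.8%) and for 20 of 40 in DMSO against DM (49.4%). At an unadjusted p under 0.05 in limma, 3 members stood in CID against DM (12.6% of all probe sets did), 11 in CID against DMSO (15.2%), 9 in CID against the mean of both controls (15.5%) and 1 in DMSO against DM (6.98%). The 11 members of CID against DMSO are 27.5% of the 40.

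**Figure D1:**
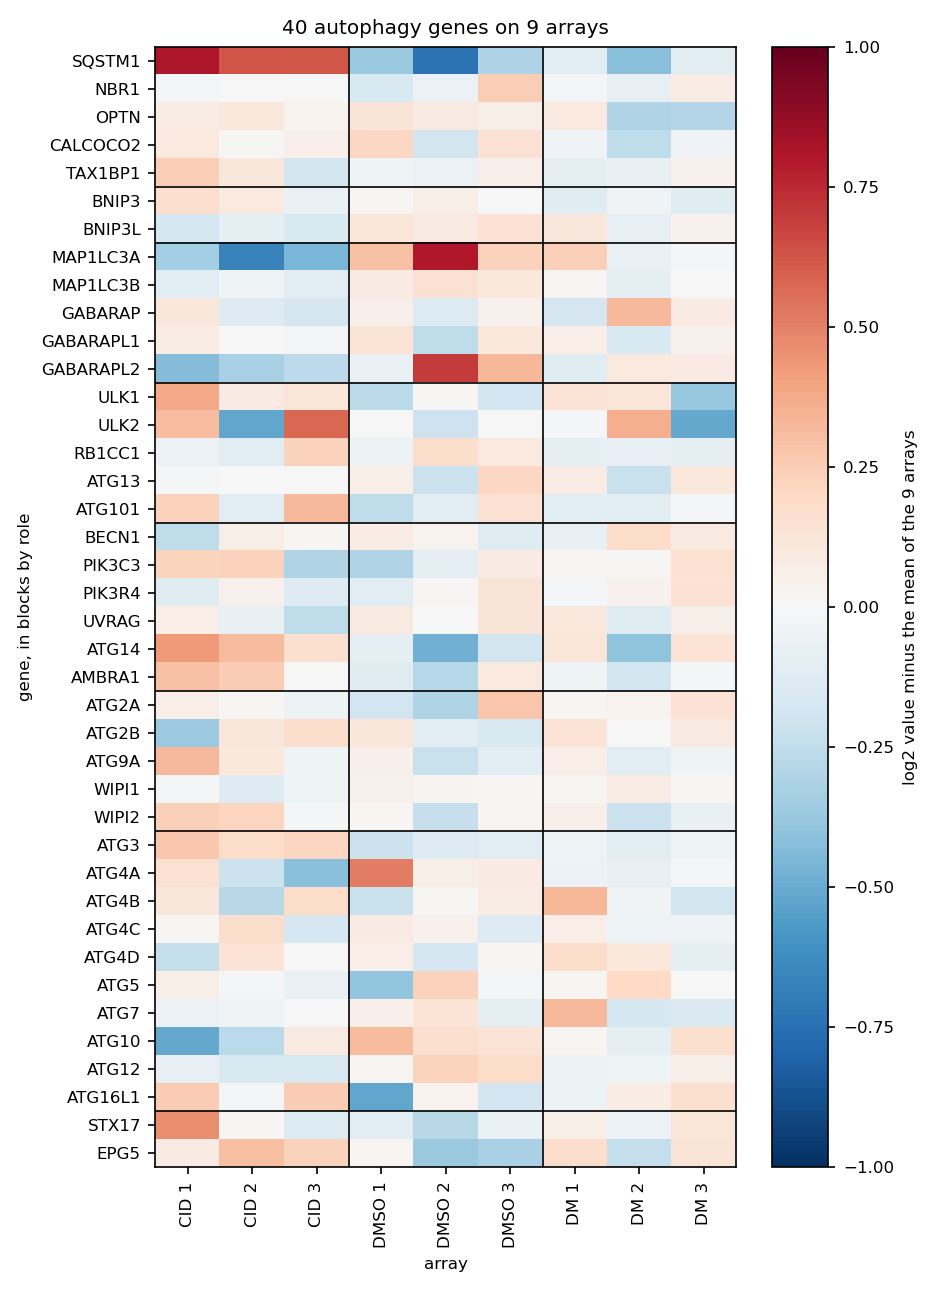
Log2 value of each of the 40 autophagy genes (rows, in blocks by role) on each of the 9 arrays (columns, CID then DMSO then DM) minus the mean of that gene over the 9 arrays. SQSTM1 is high on all 3 CID arrays and MAP1LC3A is low on all 3, and in 32 of 40 rows the CID arrays overlap with the range of the 6 control arrays.

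SQSTM1 had the largest change of the 40 genes in both comparisons of CID with a control group. It encodes p62, a ubiquitin-binding cargo receptor that also binds KEAP1, the protein that holds the transcription factor NRF2 in check, and SQSTM1 is itself a known target of NRF2. Its log2 values were 15.08, 14.90 and 14.89 on CID arrays, 13.90, 13.53 and 13.96 on DMSO arrays and 14.16, 13.85 and 14.16 on DM arrays. All CID arrays lay above all 6 control arrays. The means were 14.96 ± 0.11 with CID, 13.80 ± 0.23 with DMSO and 14.06 ± 0.18 with DM (SD, n = 3 each).

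The log2 fold change of SQSTM1 was 0.90 (SE 0.15, adjusted p = 0.0142, limma with Benjamini-Hochberg adjustment) in CID against DM, which is 1.87-fold higher with a 95% interval of 1.49 to 2.34. Against DMSO it was 1.16 (SE 0.15, adjusted p = 0.00257, limma), or 2.23-fold, and against the mean of both controls it was 1.03 (adjusted p = 0.0018, limma). The call against DM was lost without CID array 1 (adjusted p = 0.0692, limma) and with no other array left out, whereas those against DMSO and against both controls held with each array left out, at adjusted p of at most 0.0136 and 0.0145 (limma). DMSO against DM gave -0.26 (adjusted p = 0.779, limma).

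The other 4 cargo receptors did not pass in any comparison. NBR1, which binds ubiquitin and ATG8 proteins as p62 does, had log2 values of 12.54 to 12.57 on CID arrays, 12.41 to 12.81 on DMSO arrays and 12.48 to 12.64 on DM arrays, with a log2 fold change of 0.01 in CID against DM (95% interval -0.28 to 0.29). OPTN and CALCOCO2 (NDP52), which act on damaged mitochondria and on bacteria, had log2 fold changes of 0.24 and 0.16 against DM and of -0.02 and 0.00 against DMSO. TAX1BP1, a relative of CALCOCO2, had 0.10 against DM and 0.07 against DMSO. Intervals of all 4 lay within a fold of 1.5 in both comparisons. Of the mitophagy receptors, BNIP3L had log2 values of 15.70, 15.78 and 15.73 on CID arrays, 16.00, 15.97 and 16.02 on DMSO arrays and 15.99, 15.80 and 15.92 on DM arrays, which is below every control array, yet its log2 fold changes of -0.17 against DM and -0.26 against DMSO missed the threshold (adjusted p = 0.572 and 0.277, limma). BNIP3 had 0.16 and 0.04 in the same comparisons.

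**Figure D2:**
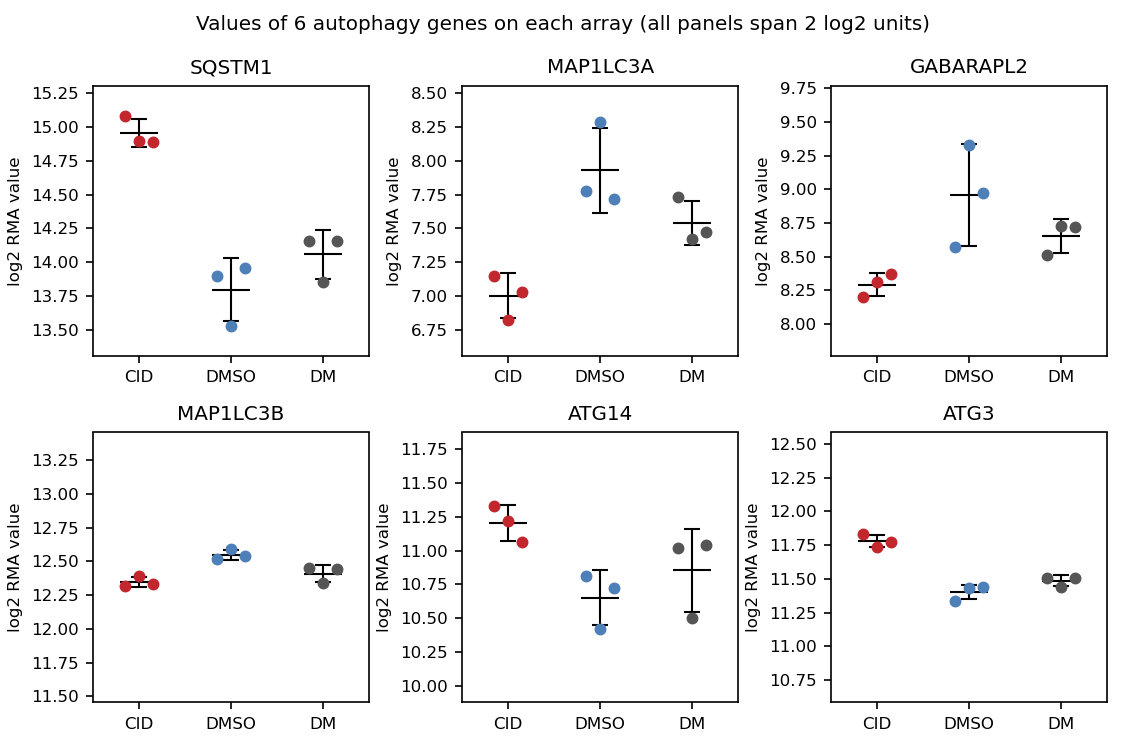
Log2 RMA value of 6 autophagy genes on each array (points), with the group mean (long bar) and SD (whiskers), for CID, DMSO and DM (n = 3 each), where every panel spans the same height on the log2 scale. CID arrays lie apart from all control arrays for SQSTM1, MAP1LC3A, GABARAPL2, ATG14 and ATG3, and MAP1LC3B overlaps with DM.

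Among the 5 ATG8 genes of the set, 1 passed, MAP1LC3A, which encodes LC3A. Its log2 values were 7.15, 6.82 and 7.03 on CID arrays, 7.78, 8.29 and 7.72 on DMSO arrays and 7.73, 7.42 and 7.47 on DM arrays. CID arrays lay below all control arrays, and the highest DMSO array stood apart from the other DMSO arrays. MAP1LC3A fell by 0.93 on the log2 scale in CID against DMSO (SE 0.17, adjusted p = 0.0166, limma with Benjamini-Hochberg adjustment), which is 1.91-fold lower. Against DM its log2 fold change was -0.54 (SE 0.17, adjusted p = 0.189, limma), and in DMSO against DM it was 0.39 (adjusted p = 0.699, limma). Against the mean of both controls it was -0.74 (adjusted p = 0.0208, limma). The call against DMSO was lost without CID array 2 or CID array 3 (adjusted p = 0.0668 and 0.0583, limma), and the one against both controls without any 1 of the 3 CID arrays (highest adjusted p = 0.105, limma).

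MAP1LC3B, whose protein LC3B is the usual marker of autophagosomes, had log2 values of 12.32, 12.39 and 12.33 on CID arrays, 12.52, 12.59 and 12.54 on DMSO arrays and 12.45, 12.34 and 12.44 on DM arrays. CID arrays were below all DMSO arrays but overlapped with DM arrays. Its log2 fold change was -0.06 against DM (95% interval -0.29 to 0.17) and -0.20 against DMSO (95% interval -0.43 to 0.03, adjusted p = 0.394, limma), so that a change of 1.5-fold lies outside both intervals.

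GABARAPL2 (GATE-16) had log2 values of 8.20, 8.31 and 8.37 on CID arrays, 8.57, 9.33 and 8.97 on DMSO arrays and 8.51, 8.73 and 8.72 on DM arrays. CID arrays were below all 6 control arrays, but the DMSO arrays were widely spread. The log2 fold change was -0.36 against DM and -0.66 against DMSO (adjusted p = 0.435 and 0.0794, limma), and the call against DMSO was gained without DMSO array 1 (adjusted p = 0.0232, limma), as was the one against both controls (adjusted p = 0.0304, limma). GABARAP and GABARAPL1 had log2 fold changes of -0.14 and 0.04 against DM and of -0.05 and 0.03 against DMSO. Over the 5 genes, 4 were below 0 in both comparisons, with medians of -0.14 against DM and -0.20 against DMSO. MAP1LC3C, an LC3 gene outside the set, had -0.24 against DM and 0.13 against DMSO, with overlapping arrays in both.

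In the ULK complex none of the 5 genes passed. ULK1, the starting kinase, had log2 values of 8.87, 8.57 and 8.61 on CID arrays, 8.22, 8.50 and 8.30 on DMSO arrays and 8.63, 8.61 and 8.11 on DM arrays, with CID above all DMSO arrays and overlapping with DM. Its log2 fold change was 0.23 against DM and 0.34 against DMSO (adjusted p = 0.609 and 0.354, limma). ULK2, its close relative, had the widest spread of the 40 genes, with values of 6.31, 5.48 and 6.58 on CID arrays, 6.01, 5.80 and 6.01 on DMSO arrays and 5.98, 6.37 and 5.49 on DM arrays. Its pooled SD was 0.42 on the log2 scale, so that its 95% interval against DM, -0.43 to 0.79, allows changes of over 1.5-fold upward. The scaffold RB1CC1 (FIP200), ATG13 and ATG101 had log2 fold changes of 0.11, 0.01 and 0.22 against DM and of -0.06, -0.02 and 0.22 against DMSO.

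Of the 6 genes of the class III PI3-kinase complex and its regulators, 0 passed. ATG14, the subunit that directs the complex to autophagy, had log2 values of 11.33, 11.22 and 11.06 on CID arrays, 10.81, 10.42 and 10.72 on DMSO arrays and 11.02, 10.50 and 11.04 on DM arrays. CID arrays lay above all control arrays, though the gap to the highest DM array was small. Its log2 fold change was 0.35 against DM and 0.55 against DMSO (adjusted p = 0.435 and 0.134, limma). AMBRA1, a regulator that binds Beclin, had 0.27 against DM and 0.29 against DMSO. The catalytic subunit PIK3C3, its partner PIK3R4, BECN1 and UVRAG, which takes the place of ATG14 in the endosomal form of the complex, lay between -0.13 and -0.01 against DM and between -0.16 and 0.16 against DMSO.

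The membrane supply genes also had 0 of 5 past the threshold. WIPI1 and WIPI2, which read the lipid made by the PI3-kinase, had log2 fold changes of -0.10 and 0.22 against DM and of -0.09 and 0.21 against DMSO. WIPI1 was the tightest of the 40 genes, with a pooled SD of 0.04 and values of 11.65, 11.54 and 11.62 on CID arrays, 11.71, 11.69 and 11.68 on DMSO arrays and 11.68, 11.74 and 11.68 on DM arrays. Its CID arrays were below all control arrays, and its interval against DM, -0.32 to 0.13, was the narrowest of the 40. The scramblase ATG9A and the lipid transfer proteins ATG2A and ATG2B lay between -0.10 and 0.16 against DM and between 0.02 and 0.22 against DMSO.

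In the conjugation systems 0 of 10 genes passed. ATG3, the enzyme that hands ATG8 proteins to phosphatidylethanolamine, came closest, with log2 values of 11.83, 11.74 and 11.77 on CID arrays, 11.34, 11.43 and 11.44 on DMSO arrays and 11.51, 11.44 and 11.51 on DM arrays. CID arrays lay above all 6 control arrays with little spread in any group. The log2 fold change of ATG3 was 0.29 against DM (adjusted p = 0.253, limma), 0.38 against DMSO (adjusted p = 0.0932, limma) and 0.34 against both controls (adjusted p = 0.0807, limma). ATG10, which joins ATG12 to ATG5, had values of 6.94, 7.18 and 7.54 on CID arrays, 7.77, 7.61 and 7.59 on DMSO arrays and 7.47, 7.35 and 7.61 on DM arrays, with CID below all DMSO arrays but overlapping with DM. Its log2 fold change was -0.26 against DM and -0.44 against DMSO (adjusted p = 0.547 and 0.204, limma).

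ATG12 itself had log2 fold changes of -0.12 and -0.27 in CID against DM and DMSO, with CID arrays below all control arrays. ATG16L1, which places the ATG12 and ATG5 conjugate on the membrane, had 0.11 and 0.39, with a low DMSO array at 6.68. The activating enzyme ATG7 had -0.03 and -0.07, and ATG5 had -0.08 and 0.05. Of the proteases that trim ATG8 proteins, ATG4A had -0.11 and -0.38, and ATG4B, ATG4C and ATG4D lay between -0.10 and 0.01 against DM and between -0.01 and 0.05 against DMSO. The pair of fusion factors, the SNARE STX17 and the tether EPG5, had log2 fold changes of 0.07 and 0.18 against DM and of 0.26 and 0.43 against DMSO, and neither passed. EPG5 had values of 9.71, 9.93 and 9.86 on CID arrays, 9.65, 9.26 and 9.31 on DMSO arrays and 9.81, 9.39 and 9.76 on DM arrays.

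**Figure D3:**
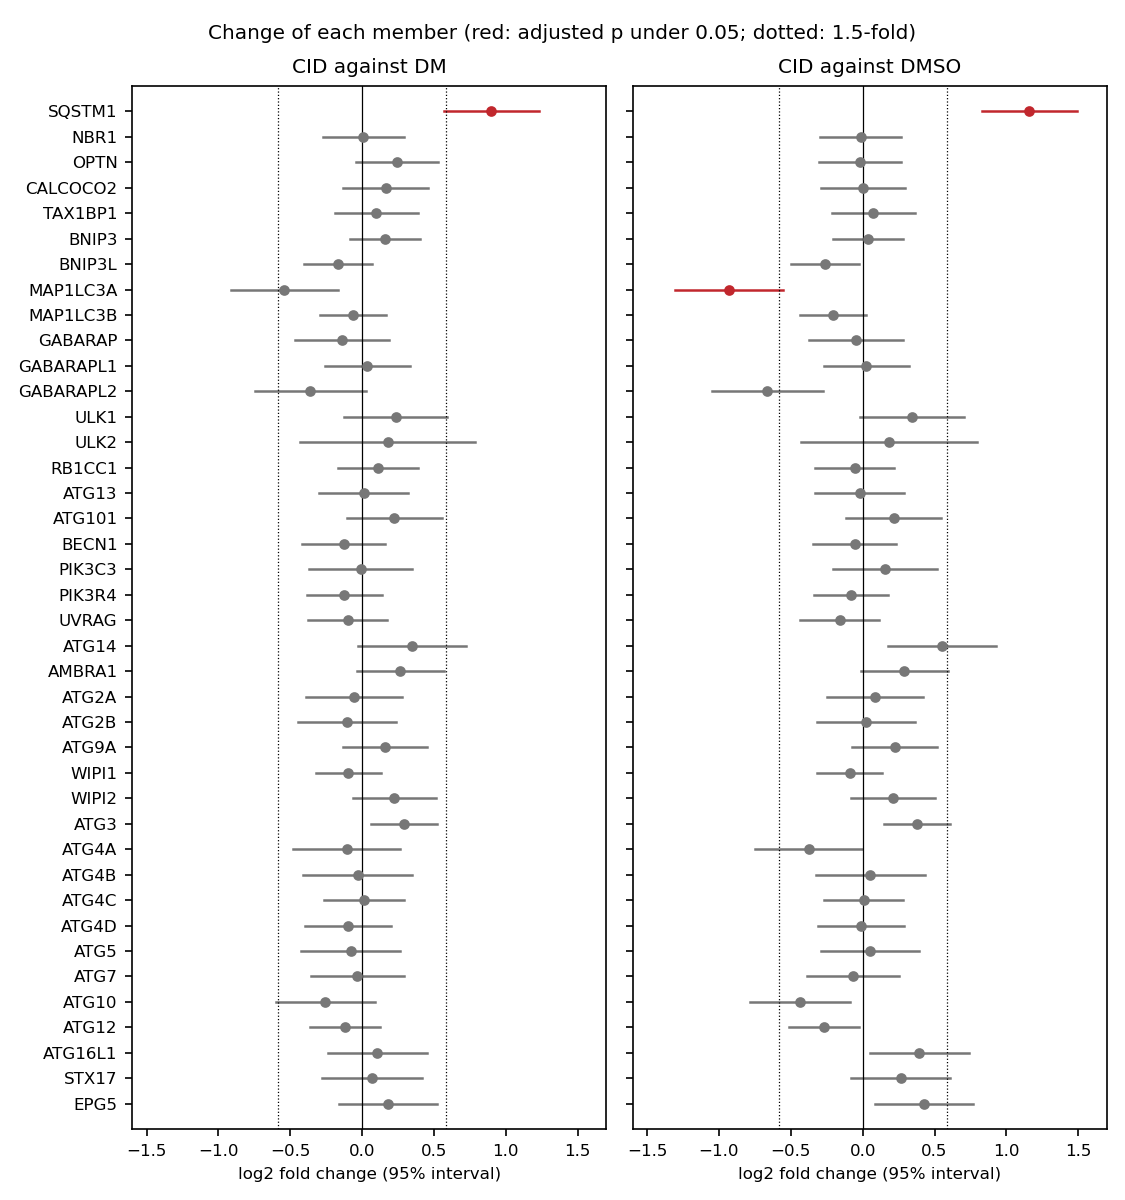
Log2 fold change (points) and 95% interval (lines) of each of the 40 autophagy genes in CID against DM (left) and CID against DMSO (right), with dotted lines at a fold of 1.5 in each direction. SQSTM1 in both panels and MAP1LC3A in the right panel, in red, passed an adjusted p of 0.05, and 33 intervals on the left and 27 on the right lie between the dotted lines.

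A missed threshold does not show that a gene was unchanged, so the 95% intervals were set against a fold of 1.5. In CID against DM, 33 of 40 intervals lay wholly within that fold in either direction, as did 65.5% of all probe sets. In CID against DMSO 27 of 40 did (63.1% of all probe sets), against the mean of both controls 32 of 40 (75.7%) and in DMSO against DM 33 of 40 (70.7%). These intervals are not adjusted over genes. Beside SQSTM1, those reaching past the fold in CID against DM belonged to MAP1LC3A, GABARAPL2, ULK1, ULK2, ATG14 and ATG10, and in CID against DMSO also to AMBRA1, ATG3, ATG4A, ATG16L1, STX17 and EPG5. The median pooled SD was 0.157 for the 40 genes and 0.194 for all probe sets, and no member had a mean below the limit of the dimmest 33.3% of probe sets.

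Arrays of CID and DM did not overlap for 10 of 40 genes (25%), 5 higher (SQSTM1, CALCOCO2, ATG14, AMBRA1 and ATG3) and 5 lower (BNIP3L, MAP1LC3A, GABARAPL2, WIPI1 and ATG12), where 17.9% of all probe sets did not overlap (8.68% higher and 9.22% lower). For CID and DMSO the count was 12 (30%), 5 higher and 7 lower, where 21.4% of all probe sets did not overlap (10.6% higher and 10.7% lower). Against all 6 control arrays it was 8 (20%), 3 higher (SQSTM1, ATG14 and ATG3) and 5 lower (BNIP3L, MAP1LC3A, GABARAPL2, WIPI1 and ATG12), where 9.75% of all probe sets did not overlap (4.42% higher and 5.33% lower). DMSO and DM arrays did not overlap for 5 genes, BNIP3, MAP1LC3B, RB1CC1 and ATG4A higher and STX17 lower, where 11.8% of all probe sets did not (5.54% higher and 6.25% lower).

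The 40 genes were set beside other genes of the pathway. Over all probe sets, 1.4% passed in CID against DM and 2.76% in CID against DMSO. Of 15 further autophagosome formation genes, 12 were measured, 0 passed against DM and 1 rose against DMSO, TBC1D14, a Rab11-binding regulator of ATG9 traffic (log2 fold change 0.55, adjusted p = 0.0324, limma; lost with any 1 of the 6 arrays left out, highest adjusted p 0.113). Of 19 further receptors and regulators of selective autophagy, 14 were measured and 0 passed, with medians of 0.05 against DM and -0.11 against DMSO. Of 14 genes of autophagosome and lysosome fusion, 13 were measured and 0 passed, with medians of 0.15 and 0.08.

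Upstream control by mTORC1, AMPK and TFEB was followed with 36 genes, of which 35 were measured. Against DM 0 passed, and against DMSO 1 rose and 3 fell. Over all probe sets, 0.802% rose and 1.96% fell against DMSO. SESN3, a sestrin that restrains mTORC1, had log2 values of 10.68, 10.87 and 10.96 on CID arrays, 11.74, 11.95 and 11.73 on DMSO arrays and 11.42, 11.57 and 11.30 on DM arrays, without overlap between CID and either control. It fell by 0.97 against DMSO (adjusted p = 0.00314, limma), and against DM its log2 fold change was -0.59 (adjusted p = 0.0546, limma). FOXO1, a transcription factor of autophagy genes, fell by 1.06 against DMSO (adjusted p = 0.0112, limma), and that call was lost without CID array 3 or DMSO array 3 (highest adjusted p 0.0538). FLCN, a GTPase-activating protein for Rag GTPases, rose by 0.87 (adjusted p = 0.0225, limma), lost without CID array 1, DMSO array 1 or DMSO array 2 (highest adjusted p 0.0863). SESN1 fell by 0.50 (adjusted p = 0.0396, limma), lost with any 1 of the 6 arrays left out (highest adjusted p 0.142). Against DM the log2 fold changes of FOXO1, FLCN and SESN1 were -0.56, 0.62 and -0.45 (adjusted p = 0.198, 0.124 and 0.0882, limma). MTOR had log2 fold changes of 0.38 against DM and 0.52 against DMSO and did not pass (adjusted p = 0.309 and 0.106, limma). TFEB lay between 2.55 and 3.03 on all 9 arrays, below the limit of 5.40, so that no fold change is given for it.

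Because p62 acts on KEAP1, genes of the KEAP1-NRF2 pathway were set beside SQSTM1. Of 13, 12 were measured, 4 rose and 0 fell against DM, and 6 rose and 0 fell against DMSO, with medians of 0.43 and 0.50. Over all probe sets, 0.392% rose against DM and 0.802% against DMSO. The rise was not shared by the whole list. NQO1 and GCLC had log2 fold changes of 0.09 and 0.17 against DM, with overlapping arrays. TXN had -0.25, with CID arrays below all DM arrays. None of these passed in either comparison. HMOX1, heme oxygenase, had log2 values of 11.19, 10.46 and 10.73 on CID arrays, 8.40, 7.36 and 7.59 on DMSO arrays and 8.03, 7.05 and 8.24 on DM arrays, without overlap between CID and the controls. It rose by 3.02 against DM and 3.01 against DMSO (adjusted p = 0.00192 and 0.00137, limma). SRXN1, sulfiredoxin, rose by 1.03 against DM (adjusted p = 0.00968, limma), OSGIN1 by 1.02 (adjusted p = 0.0128, limma; lost without DM array 3 at 0.0529) and GCLM, a subunit of the enzyme that starts glutathione synthesis, by 0.77 (adjusted p = 0.0289, limma; lost with any 1 of the 6 arrays left out, highest 0.116). Of the 6 calls against DMSO, those of HMOX1 and OSGIN1 held with each array left out. Each of the others was lost with 3 to 5 of the 6 arrays, left out 1 at a time. KEAP1 and NFE2L2 (NRF2) themselves had log2 fold changes of 0.19 and 0.12 against DM and of -0.01 and -0.04 against DMSO, and neither passed.

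BNIP3 and BNIP3L are known targets of HIF-1, so other HIF-1 targets were set beside them. Of 13, 11 were measured, and 0 rose and 2 fell in each of the comparisons with DM and with DMSO, with medians of -0.34 and -0.32. Over all probe sets, 1.01% fell against DM and 1.96% against DMSO. Against DM, 3 were above 0, VEGFA (0.17), KDM3A (0.32) and EGLN3, which was below 5.40 on every array. Against DMSO 1 was above 0, VEGFA, with CID arrays at 12.73 to 12.97 and DMSO arrays at 12.43 to 12.51. ADM, adrenomedullin, had log2 values of 14.30, 14.10 and 13.87 on CID arrays, 15.35, 15.37 and 15.20 on DMSO arrays and 15.58, 15.25 and 15.16 on DM arrays, without overlap between CID and the controls. ADM fell by 1.24 against DM and by 1.22 against DMSO (adjusted p = 0.00322 and 0.00236, limma). SLC2A1, the glucose transporter GLUT1, fell by 0.63 against DM (adjusted p = 0.0397, limma; lost with any 1 of the 6 arrays left out, highest 0.139) and by 0.72 against DMSO (adjusted p = 0.0138, limma; lost without CID array 3 or DMSO array 3, highest 0.0638). BNIP3 and BNIP3L were not among the genes that passed.

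**Figure D4:**
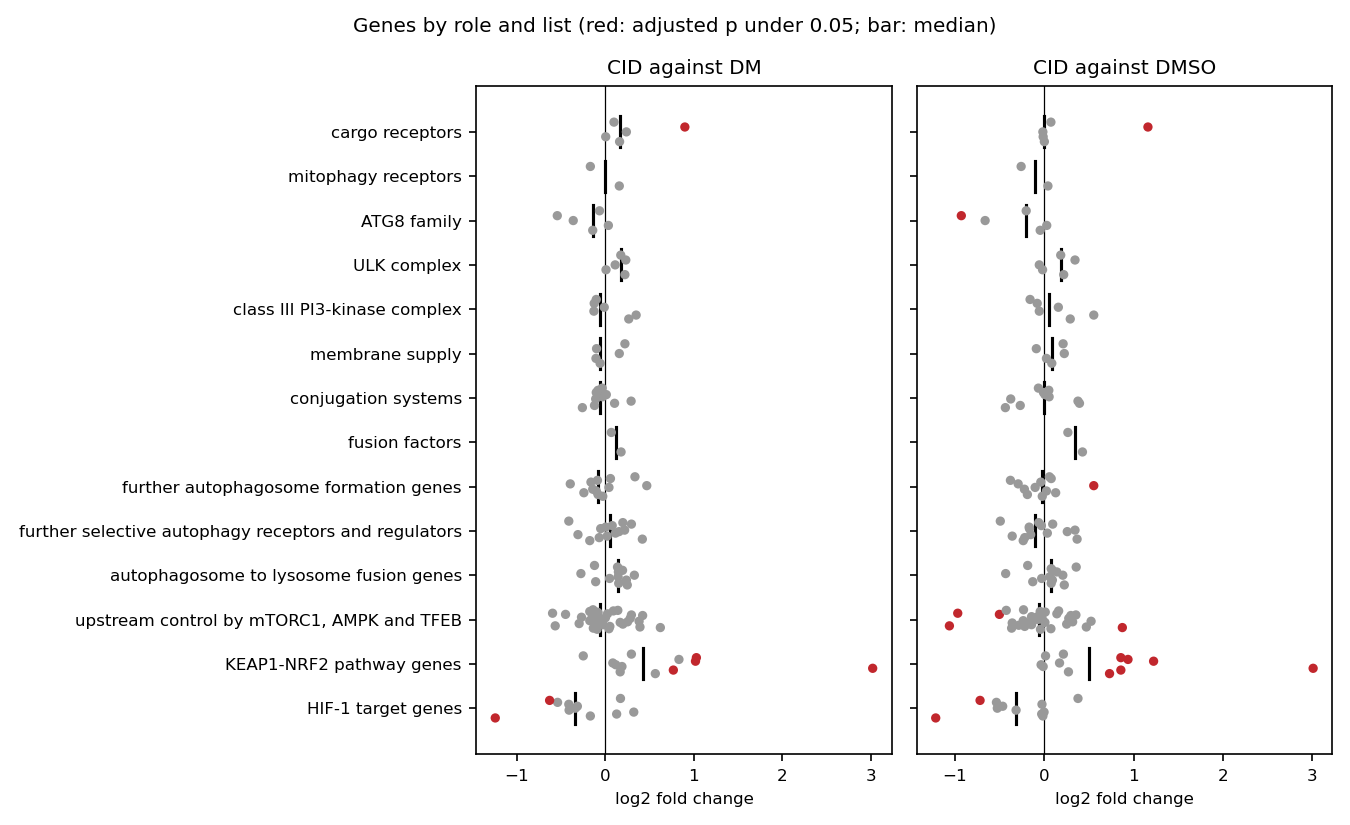
Log2 fold change of each measured gene (points) by role among the 40 autophagy genes (upper 8 rows) and in the other lists (lower 6 rows), in CID against DM (left) and CID against DMSO (right), with bars at the median and genes past an adjusted p of 0.05 in red. Of the 40 autophagy genes, 1 is red on the left and 2 on the right, and the largest value is HMOX1 at 3.02 and 3.01 in the KEAP1-NRF2 row.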

How the data were processed

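RNA of 9 samples (3 CID, 3 DMSO, 3 DM) was measured on Clariom S Human arrays. The authors made 1 RMA value per probe set in Transcriptome Analysis Console (the sources used here give no version), so that the deposited log2 values are already background-corrected, normalized and summarised. From these values, group means were fitted over all 9 arrays with limma 3.58.1 in R 4.3.3 (statmod 1.5.0 for the block), with 6 residual degrees of freedom and Benjamini-Hochberg adjustment over all 21448 probe sets. A gene passed at an adjusted p under 0.05, and a DEG also had a fold change of at least 1.5. The fit was tested on simulated data. Of all probe sets, 17709 had 1 symbol, 0 several and 3739 none, and for a gene with several probe sets the one with the highest mean was used.

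The members and lists were chosen with earlier results of these data known. Values on every array are given, by rule, for members that passed, for the 3 highest and 3 lowest members of CID against DM, and for SQSTM1, MAP1LC3B and RAB7A. Up to 4 genes that passed are named of each other list. The array values of BNIP3L, ULK1, ULK2, WIPI1 and EPG5, the ranges of NBR1 and the genes named without passing were added after their values were seen. Promoter windows and their motifs come from RefSeq. matplotlib 3.10.9 drew the figures. Precision is limited by the number of arrays. The alternatives tried are given in the closing section, and other assays of the study were not analysed here.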

Additional observations from a re-analysis of the deposited data

How the results depend on the processing

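Each count was taken again under other settings, and no fold change of a called gene turned its sign. Against 1 member called in CID against DM, the count (DEGs too) was 0 with an independent samples t-test. The count was also 0 at an adjusted p under 0.01, and 0 to 1 with each array left out. At a log2 fold change of at least 1.5, 0 DEGs were left. Against 2 members called in CID against DMSO, it was 6 with a trended and robust prior (SQSTM1, BNIP3L, MAP1LC3A, GABARAPL2, ATG14 and ATG3), 4 without the dimmest 33.3% of probe sets, 4 at an adjusted p under 0.10 (SQSTM1, MAP1LC3A, GABARAPL2 and ATG3 in both), and, with DEGs alike, 0 with the t-test, 1 at under 0.01 and 1 to 3 with each array left out. Against the mean of both controls, 2 became 4 with that prior, and, with DEGs alike, 1 at under 0.01 and 1 to 3 with each array left out. At a log2 fold change of at least 1.5, 0 DEGs remained in both. The paper lists an independent samples t-test among its general statistics. For the arrays it names Transcriptome Analysis Console and an adjusted p under 0.05, so the t-test tried here may differ from its array method. With equal variance, the t-test gave 5, 9 and 2 members at an unadjusted p under 0.05. These are for CID against DM, CID against DMSO and DMSO against DM. After Benjamini-Hochberg adjustment the t-test gave 0 members, and 2, 30 and 0 of all probe sets. In DMSO against DM, 0 members passed under every setting. The median over the members, close to 0, had no settled sign. With each array left out it ran from -0.02 to 0.05 in CID against DM, -0.01 to 0.06 in CID against DMSO and -0.05 to 0.01 in DMSO against DM, and it was -0.01 in CID against DM with array weights and -0.015 in CID against DMSO with median centring. Counts of intervals within 1.5-fold, tried again by a choice made after seeing the data, ranged with each array left out from 27 to 33 in CID against DM, 24 to 29 in CID against DMSO, 28 to 33 against both controls and 26 to 32 in DMSO against DM.

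Replicate numbers were shared across groups, but the deviations of same-numbered arrays correlated at -0.0519 to 0.0684, and 7 of 9 arrays correlated best with their own number. Between CID and DMSO, same-numbered arrays correlated at 0.065 to 0.0684 and differently numbered ones at -0.0486 to -0.0169. Same-numbered pairs with a DM array ran from -0.0519 to 0.063. With the replicate number as a block, 1, 2, 2 and 0 members were called in these 4 comparisons. Of the other calls named against DM or DMSO, the block lost SLC2A1 against DM and TBC1D14 and SESN1 against DMSO. Each member was read from 1 probe set, and no other probe set of a member was tried. Background correction and slide as a block could not be tried on the summarised values.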
